A study of Mus musculus with 28 samples.

Results

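The 38 genes described here encode the machinery that copies DNA and the enzymes that supply its building blocks. They were listed by name from known function, with earlier results of these data known: 5 genes of origin licensing, 12 of the replicative helicase, 7 of the polymerases, 7 of the sliding clamp, its loader, single-strand binding and the lagging strand, 2 of chromatin assembly and 5 of nucleotide supply. All 38 were on the array, with 42 probes of 55681, among 37208 genes and transcripts in all. A total of 34 had 1 probe and 4 (Cdc6, Chaf1b, Pole and Rfc4) had 2, of which the one with the higher mean over all arrays was used.

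The data are liver RNA levels of 28 male mice, each on its own 1-colour Agilent array, from 3 experiments in which the diet held phenobarbital (PB), a barbiturate that activates the nuclear receptor CAR and induces drug-metabolising enzymes in liver. Of the outbred CD-1 mice 4 had control diet and 4 had 1500 ppm PB, over 7 days. The hCAR/hPXR mice carry human CAR and PXR in place of the mouse receptors; 7 had control diet (0 ppm) and 7 had 1000 ppm, also over 7 days. Of the C3H/HeNCrlCrlj mice (C3H below) 3 had control diet and 3 had 500 ppm, over 27 weeks, and all 6 had first been injected once into the peritoneum with 90 mg/kg of the liver carcinogen diethylnitrosamine, so that their controls are not untreated animals. Whether tumour or surrounding liver was taken from the C3H mice is not in the labels. They also do not say in which cells the human receptors are made. The labels call the animals of a group biological replicates, so the spread given is that between mice. Strain, dose, duration and carcinogen differ together between the experiments and cannot be told apart.

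Before a cell can copy its DNA, origins are licensed: the origin recognition complex, Cdc6 and Cdt1 load the MCM ring onto DNA, and Geminin blocks Cdt1 once copying has begun. Cdc45 and the GINS complex turn the ring into an active helicase, polymerases extend primers while PCNA holds them on the template, and CAF-1 packs the new DNA into nucleosomes. Ribonucleotide reductase, thymidylate synthase and thymidine kinase feed the deoxynucleotide pool. Most hepatocytes of an adult liver are quiescent and make little of this machinery, and many of its genes are driven by E2F transcription factors at the G1 to S transition.

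The stretches before the start of the genes were therefore searched for E2F letters. RefSeq promoters (build GRCm38.p6) were matched by symbol for 31 of the 38 genes. In the 250 bases before the start, the letters TTTCGCGC, TTTGGCGC, TTTCCCGC or TTTGCCGC, on either strand, were found in 8 of these 31 genes (25.8%) and in 2.16% of the 27025 genes of the table. The 8 genes were Orc1, Cdc6, Mcm5, Mcm6, Mcm7, Gins3, Pola1 and Rfc3. CCAAT was found in 18 of 31 (58.1%) against 37.49% of all genes, and TTTGAA, the letters of the CHR element, in 4 of 31 (12.9%) against 18.26%. A match describes the letters of the window and is not evidence of a bound site. The last 160 bases before the start are shown for Mcm6 (3 matches, 2 of which overlap) and Mcm5 (2 overlapping matches), which were among the largest rises, for Gins3 (1 match), which was lower in hCAR/hPXR mice, and for the members with the highest and the lowest difference in C3H mice, Rrm2 and Mcm10, which held none of these letters. Capitals mark the E2F letters on either strand. Mcm6 is at chr1:128359706-128359865 (minus strand), Mcm5 at chr8:75109349-75109508 (plus), Gins3 at chr8:95633399-95633558 (plus), Rrm2 at chr12:24708094-24708253 (plus) and Mcm10 at chr2:5012792-5012951 (minus), each printed 5′ to 3′ in the direction of the gene.
Mcm6: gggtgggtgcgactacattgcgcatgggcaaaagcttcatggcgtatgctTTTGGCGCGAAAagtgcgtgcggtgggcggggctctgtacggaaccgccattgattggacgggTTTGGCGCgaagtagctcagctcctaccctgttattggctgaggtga
Mcm5: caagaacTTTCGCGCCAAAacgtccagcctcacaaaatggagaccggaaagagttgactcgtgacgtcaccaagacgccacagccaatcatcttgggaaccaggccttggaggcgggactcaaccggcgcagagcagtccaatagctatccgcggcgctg
Gins3: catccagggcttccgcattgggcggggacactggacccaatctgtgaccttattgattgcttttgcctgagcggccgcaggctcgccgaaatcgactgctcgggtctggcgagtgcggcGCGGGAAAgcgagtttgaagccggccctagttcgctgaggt
Rrm2: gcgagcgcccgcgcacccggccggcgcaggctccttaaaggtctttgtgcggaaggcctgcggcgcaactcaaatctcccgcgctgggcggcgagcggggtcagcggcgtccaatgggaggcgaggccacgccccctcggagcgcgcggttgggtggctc
Mcm10: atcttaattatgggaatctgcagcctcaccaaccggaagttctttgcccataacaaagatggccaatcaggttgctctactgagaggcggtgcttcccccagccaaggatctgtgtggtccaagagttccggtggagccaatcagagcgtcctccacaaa

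Levels below are on the log2 scale of the processed signal, with each array's 75th percentile of all probes set to 0, so that a level of 1 is 2-fold above that percentile; differences are PB minus control on the same scale, with the standard error (SE) of limma's fit. A gene was tested where the scanner software had marked its probe as well above background on all arrays of 1 or both groups, and was called changed at a limma p-value below 0.05 after Benjamini-Hochberg adjustment over all genes tested. Probes differ in brightness, so levels are compared between animals and never between genes. In whole liver, a lower level in each cell and fewer cells that make the RNA cannot be told apart. In CD-1 mice all controls were on 1 slide and all PB animals on another, so that slide and diet cannot be told apart; in hCAR/hPXR mice the first slide held all 7 controls and PB animal 1, and the second held PB animals 2 to 7; all 6 C3H arrays shared 1 slide. For hCAR/hPXR mice the value with the slide as a block, which rests on PB animal 1 against the controls, is therefore given for the genes named, beside the value from all 14 arrays. The hepatocyte genes Alb, Ttr, Apoa1, Apoa2 and Fgb were well above background on all 28 arrays.

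Most tested members rose in hCAR/hPXR mice, a smaller number rose in C3H mice, and none passed as higher in CD-1 mice. For hCAR/hPXR mice 26 of 34 tested members were higher and 3 lower after PB (76.5% and 8.82%), where 35.0% of all 20037 genes tested were called higher and 23.2% lower (58.1% in either direction). Of the PB animals only animal 1 shared a slide with these controls, so the counts do not part slide from diet. With the slide as a block the members' median difference was 0.55, and 32 of 34 kept their sign. In C3H mice 14 of 34 tested members were higher and none lower (41.2%), where 7.38% of 18273 genes were higher and 7.30% lower (14.7% in either direction). By limma's unadjusted p below 0.05, 25 of those 34 passed, Mcm10 as the lower one among them, beside 6467 of all 18273 genes. In CD-1 mice none of 24 tested members was higher and 1, Mcm10, was lower, where 1.85% of 23789 genes were higher and 6.14% lower (7.99% in either direction). Under the alternatives given below, 0 to 3 members were higher in CD-1 mice, whose arrays had weaker signal. By limma's unadjusted p, 4 of the 24 were below 0.05, beside 6442 of all 23789 genes, which is no larger a share. The median difference of the tested members was 0.64 in hCAR/hPXR, 0.78 in C3H and 0.15 in CD-1 mice, beside 0.13, -0.05 and -0.04 over all genes tested. Differences above 0 numbered 31 of 34 in hCAR/hPXR (60.7% of all genes tested), 32 of 34 in C3H (45.2%) and 14 of 24 in CD-1 mice (47.5%).

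These counts leave out members at background. Not tested were 14 members in CD-1 mice and 4 in each of the other strains; Orc1, Cdc6 and Pola2 were tested in none. A further 2 members in hCAR/hPXR, 4 in C3H and 5 in CD-1 mice passed the filter only through the PB group, so their entry depended on being bright there. Restricted to members that carried this mark on every array of the strain, 24 of 32 were higher and 3 lower in hCAR/hPXR, 13 of 30 higher in C3H, and 1 of 19 higher and 1 lower in CD-1 mice. Under that filter 6663 of 17546 genes were higher in hCAR/hPXR, 1099 of 16523 in C3H and 279 of 16966 in CD-1 mice. Genes called in either direction numbered 10296, 2372 and 1699. The PB animals lay wholly above the controls for 18 of 34 members in hCAR/hPXR mice (12.2% of all genes tested), for 25 of 34 in C3H mice (17.3%) and for 2 of 24 in CD-1 mice (6.54%), and wholly below them for no member in the first 2 strains (8.13% and 24.3% of all genes) and for 1 in CD-1 mice (11.9%).

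**Figure D1:**
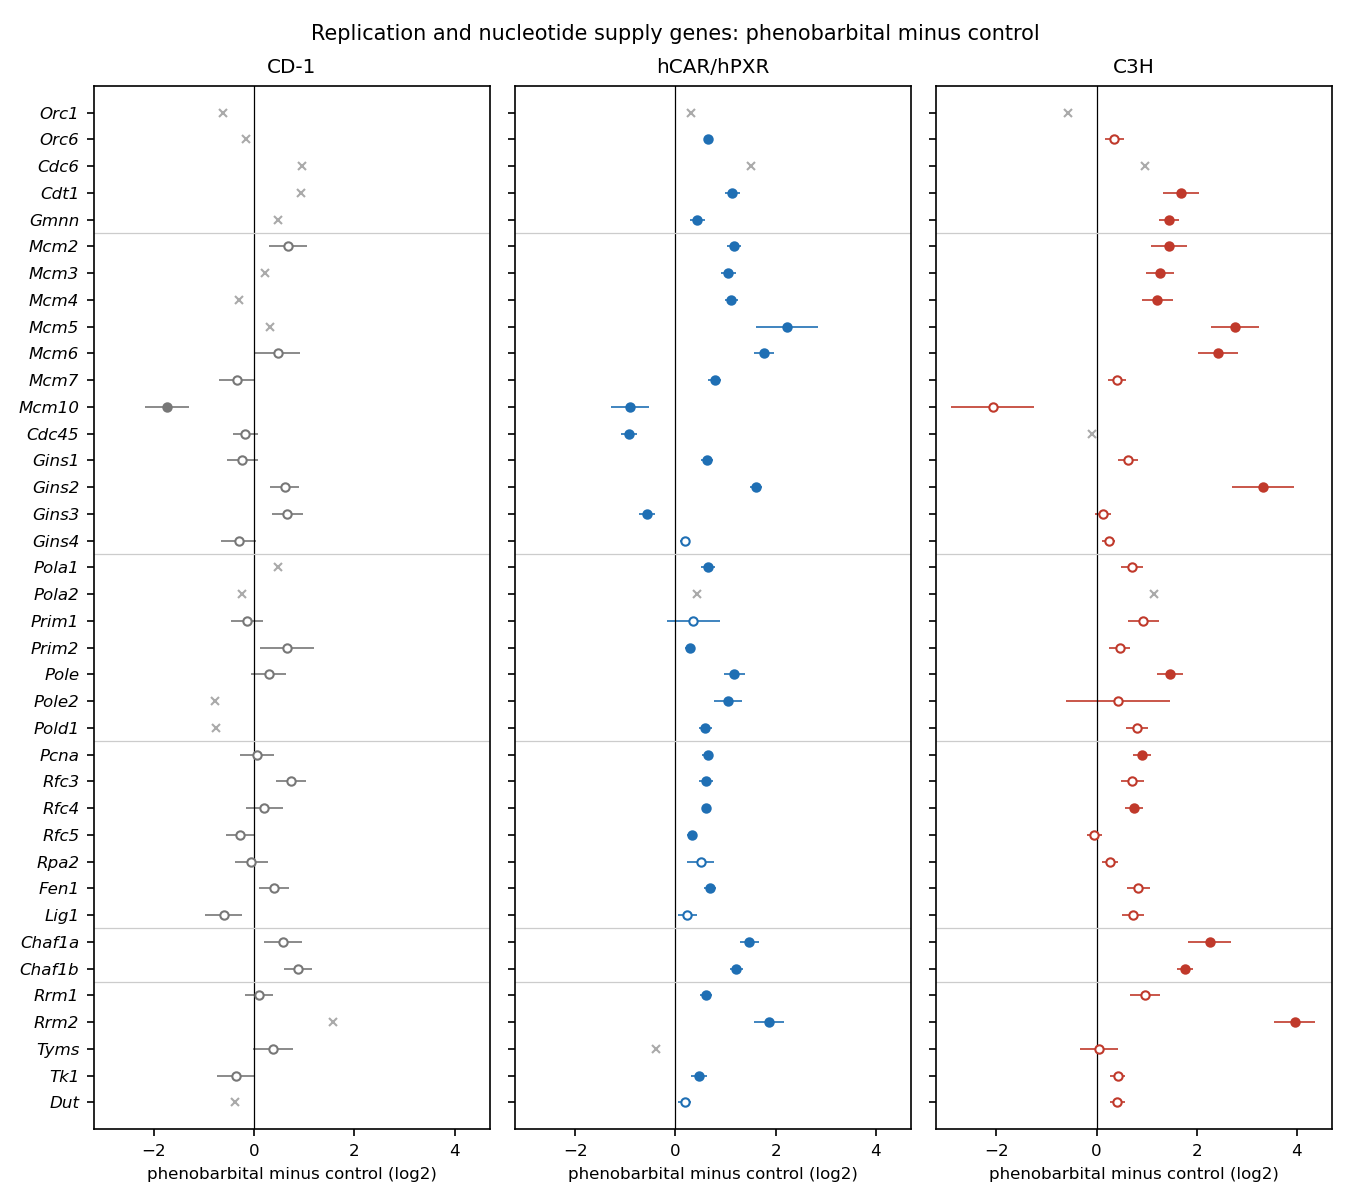
PB minus control for each of the 38 genes (log2, x axis) in CD-1 (n = 4 per group), hCAR/hPXR (n = 7) and C3H mice (n = 3), by role; bars are the SE, filled points were called at adjusted p below 0.05, open points were tested and not called, and grey crosses were not tested. Filled points to the right of 0 number 26 in hCAR/hPXR, 14 in C3H and 0 in CD-1 mice, and Mcm10 lies left of 0 in all 3 panels.

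All 14 members called higher in C3H mice were among the 26 called higher in hCAR/hPXR mice, that is 100.0% of the first list and 53.8% of the second. The 2 experiments share no animals. Of 33 members tested in both, 31 differed in the same direction, and the C3H difference was the larger in 25. Of 22 members tested in all 3 strains, 12 were above 0 and 1, Mcm10, below 0 throughout. In hCAR/hPXR mice 76.5% of tested members were called higher, and 31 of 34 there and 32 of 34 in C3H mice were above 0. Much of the overlap and of the shared direction follows from these counts alone. The matching shares over all genes were not computed.

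The members were also summed up per animal. The median over the tested members of the deviation from the control mean was 0.31 to 0.95 in the 7 hCAR/hPXR PB animals and -0.18 to 0.18 in their controls. PB animal 1, which shared the controls' slide, stood at 0.54, inside the range of the other PB animals. The C3H PB animals stood at 0.41, 0.89 and 1.13, in that order of animals 1, 2 and 3, and their controls between -0.09 and 0.08. In these 3 animals Mki67, a marker of cycling cells, was at levels of 1.41, 2.03 and 3.06. CD-1 PB animals stood at -0.07, 0.01, 0.06 and 0.47 and overlapped their controls, at -0.21 to 0.16.

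**Figure D2:**
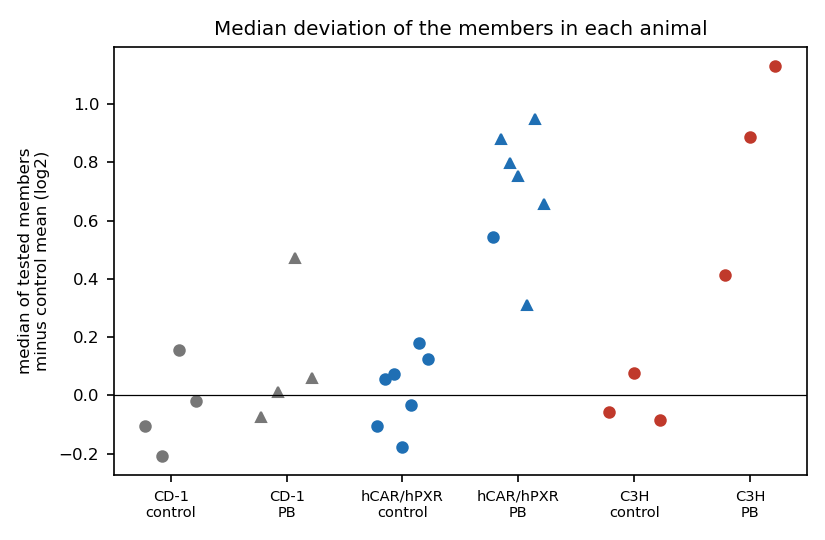
Median over the tested members of each animal's log2 deviation from the mean of its strain's controls (y axis), 1 point per animal by strain and diet; circles are the first slide of a strain and triangles the second. The 7 hCAR/hPXR and 3 C3H PB animals lie above all of their controls, from 0.31 to 0.95 and from 0.41 to 1.13, and the 4 CD-1 PB animals overlap theirs.

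Among the licensing genes, Cdt1, Geminin and Orc6 were the ones that could be tested in hCAR/hPXR and C3H mice, and none could be in CD-1 mice. All 3 rose in hCAR/hPXR mice, and in C3H mice Cdt1 and Gmnn rose while Orc6 did not pass. Here and for the roles below, counts of rises stand beside 35.0% of all genes in hCAR/hPXR, 7.38% in C3H and 1.85% in CD-1 mice. Counts of falls stand beside 23.2%, 7.30% and 6.14%. Cdt1, which brings the MCM ring to origins, was between 0.60 and 1.35 (median 0.87) in hCAR/hPXR controls and between 1.51 and 2.41 (median 2.21) in PB animals. The groups did not overlap. Its difference was 1.14 ± 0.15 (adjusted p = 3.48e-05), and 0.94 ± 0.30 with the slide as a block. In C3H mice Cdt1 was at 1.12, 1.75 and 0.77 in controls and at 2.26, 3.02 and 3.39 in PB animals, a difference of 1.68 ± 0.36 (adjusted p = 0.0317), again without overlap. The CD-1 values were -3.79, -3.16, -1.82 and -1.75 in controls and -2.59, -1.27, -1.26 and -1.71 after PB, were not well above background on 3 of the 8 arrays, and were not tested.

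Geminin (Gmnn), the inhibitor of Cdt1, was at -1.67, -1.57 and -1.42 in C3H controls and at -0.52, 0.08 and 0.11 in PB animals, with every PB animal above every control. The difference was 1.44 ± 0.20 (adjusted p = 0.0101), and the call held whichever C3H animal was left out. In hCAR/hPXR mice the groups overlapped, between -0.54 and 0.40 (median -0.13) in controls and between 0.09 and 0.66 (median 0.46) after PB, with a difference of 0.44 ± 0.14 (adjusted p = 0.0164; 0.71 ± 0.28 with the slide). On no CD-1 array was Gmnn well above background; its levels ran from -4.52 to -2.41. Orc6, a subunit of the origin recognition complex, was between 0.92 and 1.19 (median 1.03) in hCAR/hPXR controls and between 1.35 and 1.83 (median 1.76) after PB, which did not overlap and differed by 0.66 ± 0.08 (adjusted p = 2.84e-05). With the slide as a block that difference fell to 0.32 ± 0.13. C3H levels of Orc6 were 1.22, 1.21 and 0.89 in controls and 1.12, 1.65 and 1.63 after PB, a difference of 0.36 ± 0.19 that did not pass (adjusted p = 0.229). Orc6 in CD-1 mice was -2.0, -1.83, -1.56 and -1.84 in controls and -1.12, -2.98, -1.99 and -1.82 after PB, overlapping and untested. Orc1, the largest subunit of that complex, was well above background on no array of any group, and Cdc6, which recruits the MCM ring with Cdt1, on no control array of hCAR/hPXR and C3H mice and on 2 of 7 hCAR/hPXR and no C3H PB array. In CD-1 mice Cdc6 was well above background on 2 of 4 control and 3 of 4 PB arrays, with overlapping levels of -3.95, -1.77, -2.51 and -2.0 and -0.85, -3.04, -1.03 and -1.53.

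The helicase held all of the falls and, in hCAR/hPXR mice, the largest rise. It had 8 rises and 3 falls among 12 tested members in hCAR/hPXR mice, in C3H mice 6 of 11 rose, and in CD-1 mice none of 9 rose and Mcm10 fell. Of the 6 subunits of the MCM ring, all rose in hCAR/hPXR mice, by 0.78 (Mcm7; 0.39 ± 0.23 with the slide) to 2.23 (Mcm5), and all but Mcm7 (0.41 ± 0.18, adjusted p = 0.146) rose in C3H mice, by 1.21 (Mcm4) to 2.77 (Mcm5). Mcm6, 1 subunit of the ring, was between 1.89 and 3.1 (median 2.83) in hCAR/hPXR controls and between 3.93 and 4.97 (median 4.64) after PB, without overlap. The difference was 1.77 ± 0.20 (3.4-fold; adjusted p = 1.39e-05), and 1.33 ± 0.39 with the slide as a block. In C3H mice it was at 2.03, 3.08 and 2.07 in controls and 4.2, 4.81 and 5.43 after PB, a difference of 2.42 ± 0.40 (5.35-fold; adjusted p = 0.0168) with no overlap. CD-1 controls were at 0.20, -0.46, 0.12 and 0.07 and PB animals at -0.99, 1.36, 1.2 and 0.23, so that PB animal 1 lay below all controls and PB animals 2, 3 and 4 above them (0.47 ± 0.45, adjusted p = 0.516).

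In both hCAR/hPXR and C3H mice the groups of the other ring subunits named here were apart. Mcm2 was between -1.03 and -0.29 (median -0.57) in hCAR/hPXR controls and between -0.01 and 0.86 (median 0.59) after PB (1.16 ± 0.14, adjusted p = 2.3e-05), with 1.18 ± 0.29 under the slide block. For Mcm3 the hCAR/hPXR levels were between 0.59 and 1.48 (median 1.24) and between 1.63 and 2.51 (median 2.26) (1.05 ± 0.15, adjusted p = 6.52e-05). For Mcm4 they were between 1.06 and 1.72 (median 1.55) and between 2.26 and 2.95 (median 2.72) (1.12 ± 0.13, adjusted p = 1.23e-05). None of these 3 genes had a PB animal within the control range, and with the slide as a block Mcm3 and Mcm4 stood at 0.98 ± 0.31 and 0.82 ± 0.24. Mcm5 was between -5.08 and -0.21 (median -0.51) in hCAR/hPXR controls and between 0.32 and 1.59 (median 1.24) after PB. Its difference of 2.23 ± 0.62 (adjusted p = 0.00685; 2.0 ± 1.29 with the slide) owed part of its size to control 6 at -5.08, and without that animal it was 1.58.

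In C3H mice Mcm2 was at -2.48, -1.52 and -1.74 in controls and -1.07, -0.45 and 0.10 after PB (1.44 ± 0.37, adjusted p = 0.0462). Mcm3 was at -0.37, 0.18 and -0.42 and 0.51, 1.24 and 1.45 (1.27 ± 0.29, adjusted p = 0.0367). Mcm4 was at 0.65, 1.05 and 0.66 and 1.3, 2.25 and 2.43 (1.21 ± 0.31, adjusted p = 0.0481). PB animal 1 was the lowest of the PB animals for all 3 genes. Mcm5 stood at -1.56, -0.64 and -1.56 in controls and 0.61, 1.58 and 2.36 after PB, a difference of 2.77 ± 0.48 (6.82-fold; adjusted p = 0.0184) in which PB animal 1 was again lowest. Of these genes only Mcm2 could be tested in CD-1 mice, where controls at -3.79, -1.85, -2.34 and -2.07 overlapped PB animals at -2.01, -1.85, -1.81 and -1.69 (0.67 ± 0.38, adjusted p = 0.273). The CD-1 levels of Mcm3 were -1.76, -3.02, -2.36 and -2.41 in controls and -2.41, -1.95, -1.52 and -2.84 after PB, and those of Mcm4 -2.81, -2.86, -1.86 and -1.97 and -3.82, -1.98, -2.06 and -2.85. Mcm5, at -3.63, -4.2, -3.64 and -4.61 and -4.64, -3.41, -2.34 and -4.44, was well above background on no CD-1 array. The groups overlapped for all 3.

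Of the GINS complex, which joins the ring and Cdc45 in the active helicase, Gins2 moved most in hCAR/hPXR and C3H mice. Gins3 was lower in hCAR/hPXR mice alone, and not with the slide as a block. Gins2 was between -2.49 and -1.87 (median -2.26) in hCAR/hPXR controls and between -1.06 and -0.31 (median -0.64) after PB, well apart. The difference was 1.6 ± 0.12 (3.03-fold; adjusted p = 5.63e-07), and Gins2 was the one member still called with the slide as a block (1.58 ± 0.24, adjusted p = 0.00425). C3H levels of Gins2 were -2.83, -3.17 and -4.82 in controls, of which 1 of 3 was well above background, and -1.15, -0.15 and 0.47 after PB. The difference was 3.33 ± 0.62 (adjusted p = 0.0221), with the dim controls limiting its precision. In CD-1 mice Gins2 was -0.36, 0.14, -0.01 and -0.15 in controls and -0.05, 0.88, 0.39 and 0.83 after PB, overlapping through PB animal 1 (0.61 ± 0.29, adjusted p = 0.191). Gins1 rose by 0.63 ± 0.12 in hCAR/hPXR mice (adjusted p = 0.000542; 0.19 ± 0.20 with the slide, adjusted p = 0.722) and was 0.62 ± 0.20 in C3H mice (adjusted p = 0.0813), and Gins4 passed in no strain, with differences of 0.19 ± 0.09 in hCAR/hPXR (0.18 ± 0.19 with the slide) and 0.24 ± 0.14 in C3H mice; without hCAR/hPXR control 6 the former was 0.24 and passed (adjusted p = 0.0334).

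Gins3 was between 4.04 and 4.62 (median 4.27) in hCAR/hPXR controls and between 3.38 and 4.47 (median 3.79) after PB, overlapping groups with a difference of -0.56 ± 0.16 (adjusted p = 0.00656). On the controls' own slide it was not lower: the value with the slide as a block was 0.18 ± 0.22. C3H levels of Gins3 were 3.78, 3.66 and 3.89 and 3.64, 4.01 and 4.08 (0.13 ± 0.16, adjusted p = 0.592), and CD-1 levels were 2.16, 1.4, 1.54 and 1.49 and 1.72, 2.36, 2.81 and 2.35 (0.66 ± 0.30, adjusted p = 0.182). Neither pair of groups separated. Cdc45, partner of GINS at the ring, was also lower in hCAR/hPXR mice, at between -1.96 and -1.5 (median -1.71) in controls and between -3.18 and -1.87 (median -2.71) after PB (-0.93 ± 0.16, adjusted p = 0.000281), with only -0.13 ± 0.22 left under the slide block. In CD-1 mice Cdc45 differed by -0.18 ± 0.25 (adjusted p = 0.667), and in C3H mice it was near background and not tested, at -2.06, -2.99 and -3.73 in controls and -3.33, -2.73 and -2.99 after PB.

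Mcm10, which helps to start the helicase and to hold the polymerase at the fork, was the one gene below 0 in each strain among the 22 members tested in all 3. It has 1 probe, and whether that probe reports Mcm10 was not tested, since its sequence was not used here. In CD-1 mice the controls were at 3.22, 2.1, 2.81 and 2.59 and the PB animals at -0.50, 1.38, 1.52 and 1.36, every one below every control. The difference was -1.74 ± 0.43 (3.34-fold lower; adjusted p = 0.0279). PB animal 1 was the lowest, and without it the difference was -1.26 (adjusted p = 0.0391). The call was lost without control 3 (adjusted p = 0.0786) and without PB animal 2 (adjusted p = 0.0511). In hCAR/hPXR mice Mcm10 was between 2.58 and 5.45 (median 5.1) in controls and between 2.83 and 4.19 (median 3.78) after PB, overlapping through the lowest control. The difference of -0.91 ± 0.38 passed narrowly (adjusted p = 0.0499; -0.86 ± 0.78 with the slide) and kept its call in 2 of the 14 fits that left out 1 animal, with adjusted p up to 0.102. C3H levels were 7.74, 6.22 and 6.72 in controls and 6.65, 4.4 and 3.41 after PB, a difference of -2.07 ± 0.83 that did not pass (adjusted p = 0.131). PB animal 1 lay among the controls there, and PB animals 2 and 3 lay below all of them; without PB animal 1 the difference was -2.99 (adjusted p = 0.00996).

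**Figure D3:**
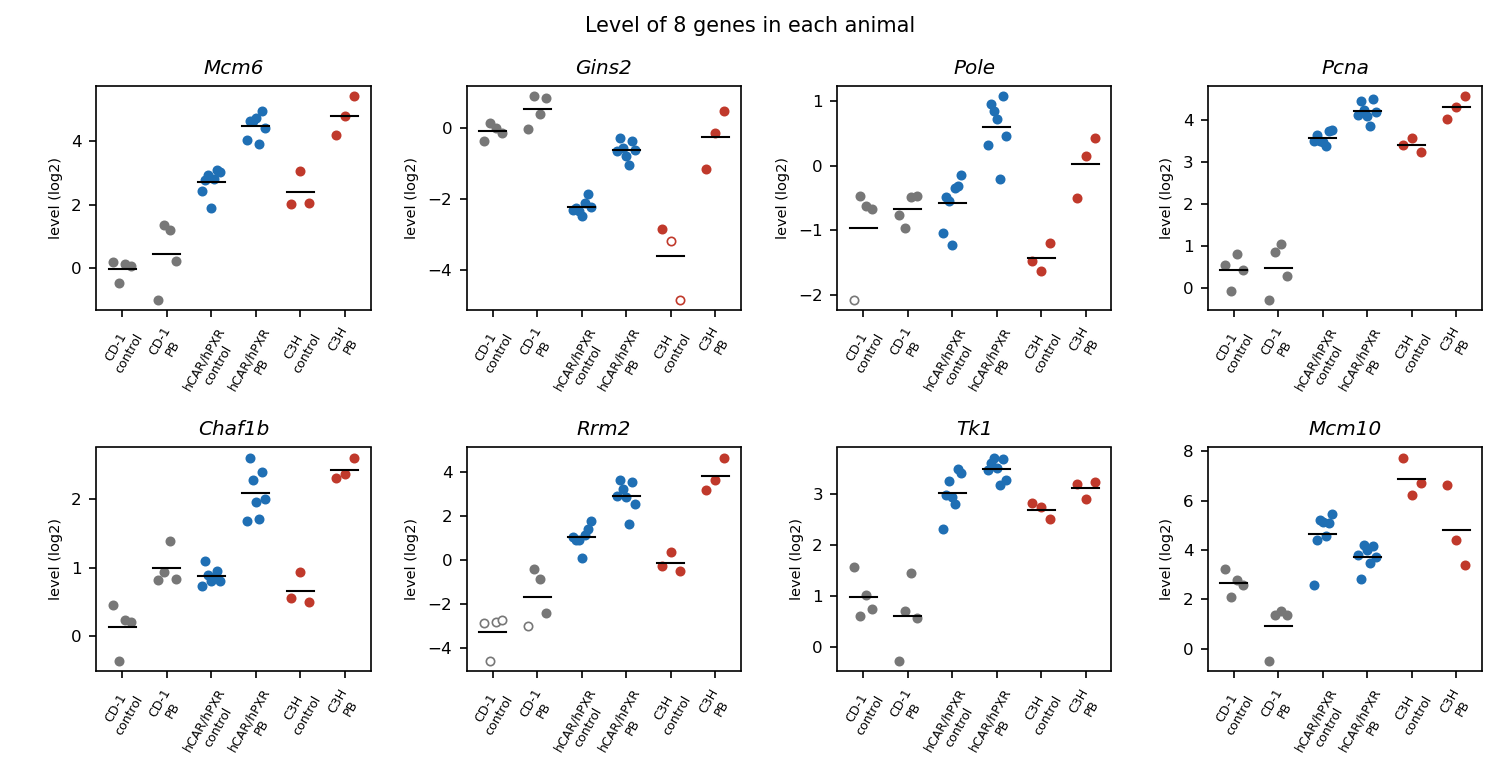
Level of 8 genes (log2, y axis; each panel has its own scale) in every animal, by strain and diet; filled points were well above background, open points were not, and black lines are group means. Mcm6, Gins2, Pole, Chaf1b and Rrm2 stand higher after PB in hCAR/hPXR and C3H mice, and the Mcm10 probe has lower means after PB in all 3 strains.

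Of the polymerases, DNA primase included, most rose in hCAR/hPXR mice and 1 did in C3H mice. The hCAR/hPXR count was 5 of 6 tested members, by 0.30 (Prim2; 0.15 ± 0.20 with the slide) to 1.18 (Pole); in C3H mice 1 of 6, Pole, rose, although all 6 were above 0; in CD-1 mice none of 3 passed. Pole, the catalytic subunit of the leading-strand polymerase epsilon, was between -1.22 and -0.15 (median -0.48) in hCAR/hPXR controls and between -0.22 and 1.07 (median 0.72) after PB, overlapping at the edge (1.18 ± 0.21, adjusted p = 0.000314; 0.90 ± 0.42 with the slide). In C3H mice it was at -1.47, -1.63 and -1.2 and -0.50, 0.15 and 0.43, without overlap (1.46 ± 0.26, adjusted p = 0.02). CD-1 levels were -2.07, -0.47, -0.62 and -0.67 and -0.76, -0.96, -0.48 and -0.48, where control 1 stood below the rest (0.29 ± 0.35, adjusted p = 0.618). A second Pole probe did not measure the gene above background in hCAR/hPXR and C3H mice: it was well above on 2 of 7 hCAR/hPXR control arrays and on none of the PB or C3H arrays, and with the mean of both probes the C3H difference was 0.82 (adjusted p = 0.0855).

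Prim1, the catalytic subunit of primase, was tested in all 3 strains and passed in none with all animals. It was between 0.55 and 1.11 (median 0.84) in hCAR/hPXR controls and between -2.22 and 2.07 (median 1.81) after PB, so that PB animal 5 at -2.22 stood far below the other 6, the next of which was at 1.40. The difference was 0.36 ± 0.53 (adjusted p = 0.576; 0.55 ± 1.1 with the slide). Without PB animal 5 it was 0.93 and passed (adjusted p = 5.17e-05). In C3H mice Prim1 was at 1.31, 1.29 and 1.4 and 1.64, 2.24 and 2.93, with all PB animals above the controls and a difference of 0.93 ± 0.31 (adjusted p = 0.0881). CD-1 levels were -0.95, -1.01, -0.61 and -0.74 and -1.77, -0.45, -0.50 and -1.14, which overlapped (-0.14 ± 0.32, adjusted p = 0.806). Among the rest of the role, Pole2, Pola1 and Pold1 rose in hCAR/hPXR mice by 1.05 ± 0.28, 0.65 ± 0.14 and 0.60 ± 0.13, with 3 of 7 controls well above background for Pole2. With the slide as a block these were 0.96 ± 0.59, 0.62 ± 0.29 and 0.32 ± 0.25. Pold1, the catalytic subunit of polymerase delta, came close in C3H mice at 0.82 ± 0.22 (adjusted p = 0.0537).

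The clamp, its loader and Fen1 rose in hCAR/hPXR mice, and Pcna and Rfc4 rose in C3H mice as well. Of the 7 tested, 5 rose in hCAR/hPXR mice, by 0.33 to 0.69. In C3H mice 2 of 7 rose, and for 6 of 7 the PB animals lay above all controls (17.3% of all genes tested). In CD-1 mice none of 7 passed. Pcna, the sliding clamp, was between 3.37 and 3.75 (median 3.5) in hCAR/hPXR controls and between 3.86 and 4.49 (median 4.19) after PB, without overlap. Its difference was 0.64 ± 0.10 (adjusted p = 0.000138), and 0.54 ± 0.20 with the slide. C3H levels of Pcna were 3.39, 3.55 and 3.24 and 4.01, 4.31 and 4.56, again apart (0.90 ± 0.18, adjusted p = 0.026). In CD-1 mice the levels of 0.54, -0.08, 0.80 and 0.42 and -0.28, 0.86, 1.05 and 0.27 overlapped and differed by 0.06 ± 0.34 (adjusted p = 0.93).

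Rfc4 and Rfc5 are subunits of the clamp loader. Rfc4 was between 1.11 and 1.4 (median 1.24) in hCAR/hPXR controls and between 1.58 and 2.14 (median 1.87) after PB (0.62 ± 0.09, adjusted p = 8.64e-05; 0.40 ± 0.17 with the slide), and its C3H levels were 1.53, 1.4 and 1.63 and 2.02, 2.21 and 2.57 (0.75 ± 0.17, adjusted p = 0.037). The groups were apart in both strains. A second Rfc4 probe gave 0.68 in hCAR/hPXR mice and 0.54 in C3H mice, the latter not passing (adjusted p over all probes = 0.0634). CD-1 levels of Rfc4 were 2.51, 1.27, 0.82 and 0.63 and 1.72, 1.54, 1.56 and 1.22, with control 1 above all others (0.20 ± 0.38, adjusted p = 0.75). Rfc5 was between 1.87 and 2.39 (median 2.24) and between 2.25 and 2.74 (median 2.55) in hCAR/hPXR mice (0.33 ± 0.10, adjusted p = 0.00962), of which 0.03 ± 0.18 remained with the slide as a block. C3H levels were 2.83, 2.82 and 3.02 and 2.74, 2.71 and 3.1 (-0.04 ± 0.15, adjusted p = 0.869), and CD-1 levels 1.08, 0.50, 0.69 and 0.66 and -0.12, 0.58, 0.76 and 0.60 (-0.28 ± 0.28, adjusted p = 0.54). Both pairs overlapped.

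Fen1, the nuclease that trims Okazaki fragments, was between 1.57 and 2.17 (median 1.88) in hCAR/hPXR controls and between 2.23 and 2.91 (median 2.56) after PB, apart by 0.69 ± 0.11 (adjusted p = 0.000191; 0.64 ± 0.23 with the slide). In C3H mice its levels of 1.25, 1.72 and 1.47 and 1.9, 2.37 and 2.68 also separated, but the difference of 0.84 ± 0.23 did not pass (adjusted p = 0.0585). CD-1 levels were -0.93, -0.55, -0.21 and -0.20 and -0.67, 0.13, 0.39 and -0.15, overlapping (0.40 ± 0.31, adjusted p = 0.411). Rfc3, another loader subunit, rose by 0.62 ± 0.14 in hCAR/hPXR mice (0.44 ± 0.28 with the slide) and was 0.72 ± 0.23 in C3H mice (adjusted p = 0.0818). In CD-1 mice it was 1 of the 2 members whose PB animals all lay above the controls, at -0.36, -0.64, -0.66 and -0.61 against -2.02, -0.81, -1.34 and -1.01, and did not pass (0.73 ± 0.30, adjusted p = 0.143). Rpa2, of the single-strand binding complex, and Lig1, the ligase that seals the fragments, passed in no strain with all animals; the C3H differences were 0.28 ± 0.16 and 0.73 ± 0.22 (adjusted p = 0.254 and 0.0724). In hCAR/hPXR mice Lig1 differed by 0.24 ± 0.19 (-0.06 ± 0.38 with the slide), and Rpa2 by 0.51 ± 0.28 (adjusted p = 0.127; 0.56 ± 0.57 with the slide). PB animal 5, at -1.79, was the lowest for Rpa2 too, and without it the difference was 0.74 and passed (adjusted p = 0.00554).

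Both large subunits of the chromatin assembly factor CAF-1 rose in hCAR/hPXR and in C3H mice. Chaf1b was between 0.73 and 1.09 (median 0.85) in hCAR/hPXR controls and between 1.68 and 2.61 (median 2.0) after PB. The groups were apart by 1.22 ± 0.14 (2.33-fold; adjusted p = 1.22e-05), or 0.80 ± 0.25 with the slide. C3H levels were 0.56, 0.94 and 0.49 in controls and 2.32, 2.37 and 2.61 after PB, a difference of 1.77 ± 0.17 (3.4-fold; adjusted p = 0.00311), the smallest adjusted p of any member in that strain. CD-1 levels were 0.45, -0.37, 0.23 and 0.21 and 0.81, 0.93, 1.39 and 0.84, also without overlap. That difference of 0.87 ± 0.28 did not pass (adjusted p = 0.0732; 0.97 and 0.04996 without control 1), while the second Chaf1b probe gave 1.01 and passed (adjusted p over all probes = 0.0378); it gave 1.5 in hCAR/hPXR and 2.0 in C3H mice. Chaf1a was between -2.76 and -1.85 (median -2.01) in hCAR/hPXR controls and between -1.21 and -0.11 (median -0.66) after PB, apart by 1.48 ± 0.19 (adjusted p = 3.7e-05; 0.89 ± 0.36 with the slide). In C3H mice it was at -3.37, -1.92 and -2.68, with 1 of 3 controls well above background, and at -1.02, -0.23 and 0.07 after PB (2.26 ± 0.43, adjusted p = 0.0236). The CD-1 groups, at -1.2, -0.19, -0.24 and -0.68 and 0.79, 0.39, -0.90 and -0.29, overlapped (0.58 ± 0.38, adjusted p = 0.342).

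Of the nucleotide supply genes Rrm2, the regulated small subunit of ribonucleotide reductase, had the largest differences. Of the 4 tested in hCAR/hPXR mice 3 rose (Rrm1, Rrm2 and Tk1), in C3H mice 1 of 5 (Rrm2) and in CD-1 mice none of 3. Rrm2 was between 0.12 and 1.8 (median 1.08) in hCAR/hPXR controls and between 1.64 and 3.67 (median 2.92) after PB, overlapping only between the highest control and the lowest PB animal. The difference was 1.87 ± 0.30 (3.65-fold; adjusted p = 0.000147), and 1.86 ± 0.62 with the slide. In C3H mice the controls were at -0.27, 0.37 and -0.48 and the PB animals at 3.18, 3.63 and 4.67, a difference of 3.95 ± 0.41 (15.5-fold; adjusted p = 0.00406), the largest of any tested member in any strain. The call held whichever C3H animal was left out. In CD-1 mice Rrm2 was at -2.88, -4.6, -2.81 and -2.72 in controls, none well above background, and at -3.01, -0.42, -0.86 and -2.4 after PB, 3 of 4 well above. With the controls raised to the lowest signal marked above background on each array, the PB mean was 2.05-fold higher. This is not a strict lower bound, since not all PB arrays were well above background and the groups overlapped. Rrm2 was not tested there. PB animals 2 and 3 lay far above the controls, PB animal 4 slightly above and PB animal 1 among them.

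Tk1, the salvage enzyme that phosphorylates thymidine, was between 2.33 and 3.5 (median 2.98) in hCAR/hPXR controls and between 3.19 and 3.72 (median 3.51) after PB, overlapping, with a difference of 0.46 ± 0.16 (adjusted p = 0.0228; 0.44 ± 0.33 with the slide). C3H levels were 2.83, 2.75 and 2.51 and 3.21, 2.91 and 3.24, which separated by 0.42 ± 0.15 without passing (adjusted p = 0.106). CD-1 levels were 1.58, 0.61, 1.02 and 0.75 and -0.27, 0.72, 1.46 and 0.57, overlapping (-0.37 ± 0.37, adjusted p = 0.532). Rrm1, the large reductase subunit, rose by 0.62 ± 0.12 in hCAR/hPXR mice (adjusted p = 0.000506; 0.43 ± 0.23 with the slide) and was 0.97 ± 0.30 in C3H mice (adjusted p = 0.0717). Dut, which removes dUTP, passed in no strain, with 0.19 ± 0.13 in hCAR/hPXR (0.48 ± 0.25 with the slide) and 0.41 ± 0.15 in C3H mice. Tyms, thymidylate synthase, differed by 0.05 ± 0.38 in C3H and 0.38 ± 0.40 in CD-1 mice (adjusted p = 0.944 and 0.557). In hCAR/hPXR mice Tyms was well above background on 6 of 7 control and 6 of 7 PB arrays and was not tested. It differed there by -0.39, with overlapping groups.

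**Figure D4:**
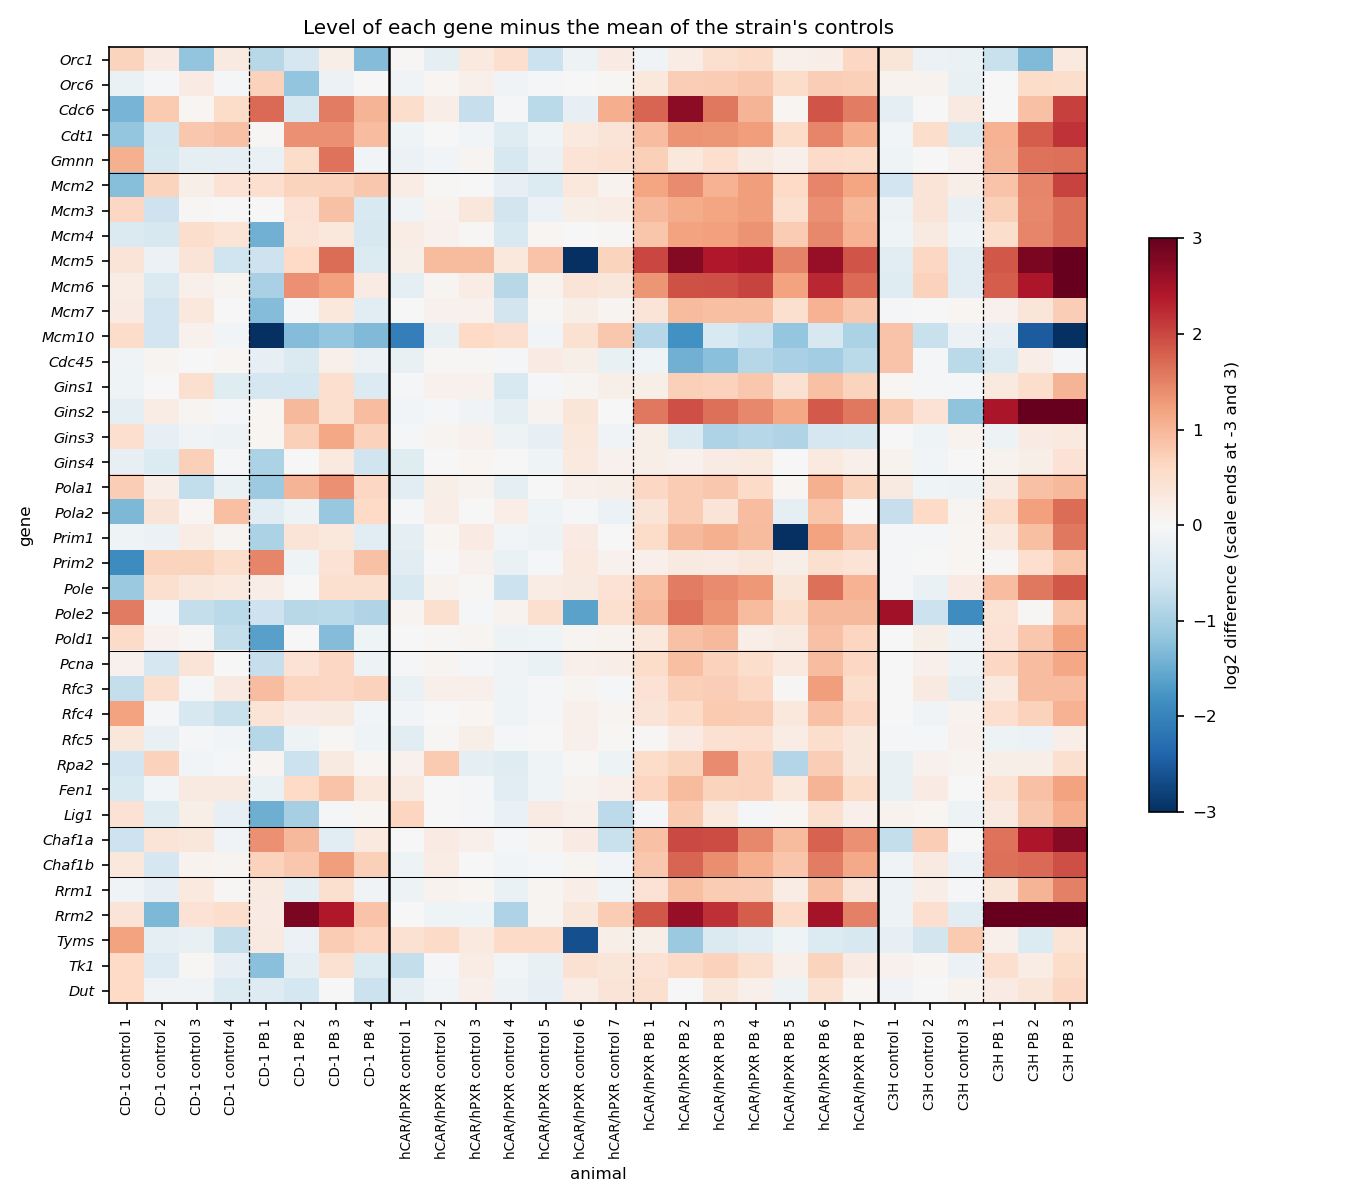
Level of each of the 38 genes (rows, by role) in each of the 28 animals (columns) minus the mean of that strain's controls, log2, on a colour scale that ends at -3 and 3; dashed lines part control from PB and solid lines part the strains. The red columns are the hCAR/hPXR and C3H PB animals, PB animal 5 and PB animal 1 being the palest of each, and the Mcm10 row turns blue after PB in all 3 strains.

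The slide changed most hCAR/hPXR calls and few directions. With the slide as a block 32 of 34 members kept the sign of their difference and the median was 0.55 instead of 0.64, but 1 member (Gins2) passed instead of 29. Over all genes the calls went from 11643 to 440. Gins3 and Lig1 turned sign, to 0.18 and -0.06. The SE of each member named above was larger with the block, a fit in which 1 PB animal is set against 7 controls. Of the 26 members that rose, all kept the call in each of the 14 fits that left out 1 animal, as did Cdc45 and Gins3. These fits cannot part slide from diet, since the second slide still held PB animals alone.

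**Figure D5:**
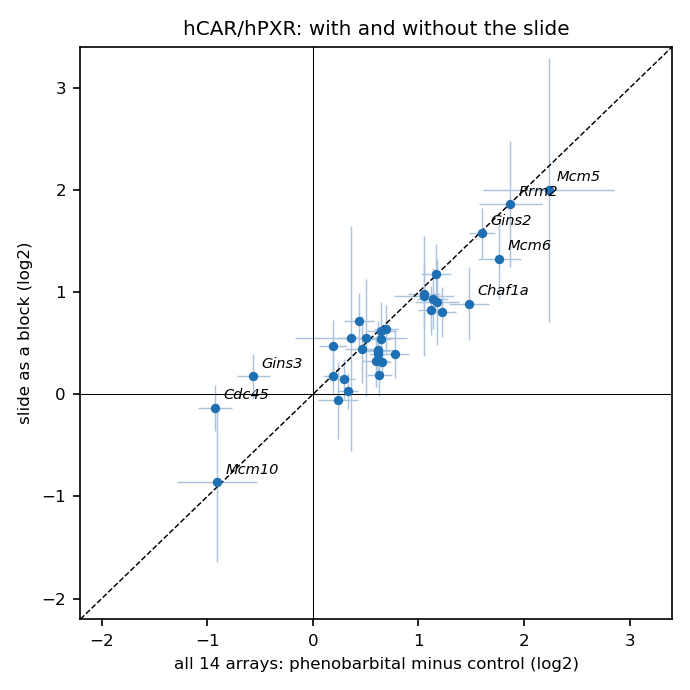
PB minus control in hCAR/hPXR mice (log2) for the 34 tested members, from all 14 arrays (x axis) and with the slide as a block (y axis); bars are the SE and the dashed line marks equal values. Mcm5, Rrm2, Gins2 and Mcm6 stay near or below the line at values above 1, while Cdc45 and Gins3, at -0.93 and -0.56 from all arrays, lie at -0.13 and 0.18 with the block.

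The count of C3H calls moved with the animals that entered. Leaving out 1 animal gave between 3 and 25 members called higher, against 14 with all 6: 4, 7 and 3 without controls 1, 2 and 3, and 25, 3 and 6 without PB animals 1, 2 and 3. Over all genes the calls moved with them, from 2682 to between 559 and 5381. Gmnn, Chaf1b and Rrm2 were called in every one of these fits.

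Differences between the strains were tested as interactions in 1 limma fit of all arrays; the comparisons with CD-1 mice share the CD-1 animals. The PB effect was larger in hCAR/hPXR than in CD-1 mice for 7 of 35 members tested (19.5% of all genes) and smaller for 1 (9.11%), where 28.6% of all genes passed in either direction. In either direction the members passed no more often than genes at large, and as larger about as often. Among members measured above background on all arrays of both strains, those that passed were Mcm6 (1.3), Mcm7 (1.12), Gins1 (0.87), Rfc5 (0.61) and Gins3 (-1.22). The others were Orc6, Mcm4 and Pold1, which were not tested within CD-1 mice, being well above background on 6, 4 and 5 of the 8 arrays, so that the size of their difference is not measured. In C3H against CD-1 mice it was larger for 8 of 35 (9.63% of all genes) and smaller for none (5.46%; 15.1% of all genes in either direction): Mcm6 (1.95), Lig1 (1.34) and Chaf1b (0.90), measured on all arrays of both strains, and Mcm4, Pold1, Rrm2, Gins2 and Chaf1a, which were not. Of those 5, the first 3 were dim in CD-1 mice (no Rrm2 control was well above background), and Gins2 and Chaf1a were well above background on 1 of 3 C3H controls, so that these sizes are not measured either. The Chaf1b difference turned to -0.35 under quantile normalization and to -0.57 with normexp. Between hCAR/hPXR and C3H mice Gins2 passed as lower (fitted value -1.73 ± 0.44, adjusted p = 0.0127, resting on the same dim C3H controls; 4.16% of all genes were called lower, 5.39% higher and 9.55% in either direction), and none of the other 34 members passed. Mcm10 passed in none of these 3 tests. The fit holds no term for the slide, and the CD-1 arrays had weaker signal.

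Genes of the same pathways outside the 38 were counted in the same fits, where, as above, 35.0% of all genes were higher and 23.2% lower in hCAR/hPXR mice, 7.38% and 7.30% in C3H and 1.85% and 6.14% in CD-1 mice. Of 38 other replication factors, 23 of 32 tested rose and 1 fell in hCAR/hPXR mice, 7 of 32 rose and 1 fell in C3H mice, and none of 27 rose and 1 fell in CD-1 mice. Uhrf1, which guides maintenance methylation to new DNA, rose by 2.68 ± 0.25 in hCAR/hPXR (2.32 ± 0.51 with the slide) and by 3.63 ± 0.55 in C3H mice, where 2 of 3 controls were well above background. Esco2, a cohesin acetyltransferase, rose by 1.82 ± 0.19 (1.12 ± 0.32 with the slide) in hCAR/hPXR mice. No C3H control of Esco2 was well above background, so that it entered the test there only through the PB group. With those controls raised to the lowest signal marked above background, it was 5.36-fold higher after PB. Asf1b, a histone chaperone, rose by 1.62 ± 0.20 (1.55 ± 0.41 with the slide) and 2.72 ± 0.43. Dnmt1, the maintenance methyltransferase, was the one that fell in CD-1 mice (-1.16 ± 0.26). With the slide as a block 1 of the 32 was called in hCAR/hPXR mice and the median was 0.32 in place of 0.47.

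Of 20 other nucleotide supply genes, 11 of 18 tested rose and 1 fell in hCAR/hPXR mice, with Umps (pyrimidine synthesis) at 0.71 ± 0.09 (0.68 ± 0.19 with the slide) and Atic (purine synthesis) at 0.58 ± 0.08 (0.41 ± 0.14). The 12 called of 18 (66.7%) stand beside 58.1% of all genes, and none was called with the slide as a block. In C3H mice none of 17 rose and 1, Paics of purine synthesis, fell (-0.78 ± 0.19), or 5.88% called beside 14.7% of all genes; in CD-1 mice none of 15 passed. The medians of that list were 0.34, -0.05 and -0.32 in hCAR/hPXR, C3H and CD-1 mice.

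Of the E2F and pocket protein genes 7 of 13 rose and 2 fell in hCAR/hPXR mice (69.2% called beside 58.1% of all genes; 2 genes with the slide as a block) and 3 of 13 rose and 1 fell in C3H mice (30.8% beside 14.7%). E2f1, an activator of the G1 to S genes, rose by 1.04 ± 0.10 (0.72 ± 0.17 with the slide) and 1.38 ± 0.21, and E2f2 by 1.2 ± 0.11 (1.0 ± 0.22) and 1.41 ± 0.34. The pocket protein gene Rbl1 rose by 1.57 ± 0.19 (1.14 ± 0.37 with the slide) and 2.3 ± 0.36, with 5 of 7 and 1 of 3 controls well above background. E2f7, a repressor, fell in both (-0.62 ± 0.16, or -0.29 ± 0.32 with the slide, and -0.57 ± 0.12). In CD-1 mice E2f2 rose by 1.41 ± 0.33 and E2f8, another repressor, fell (-1.43 ± 0.33), of 7 tested. Of the proliferation reference genes 4 of 5 rose in hCAR/hPXR and in C3H mice; Mki67 rose by 2.51 ± 0.25 in hCAR/hPXR (2.24 ± 0.50 with the slide) and 4.42 ± 0.42 in C3H mice and was 0.51 ± 0.34 in CD-1 mice (adjusted p = 0.346).

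Markers of the cells that a liver sample can hold moved as follows, and their part in these results was not tested. Of the 5 hepatocyte genes 4 fell in C3H mice, with summed levels, in multiples of the percentile signal, of 8272 to 9593 in controls and 5624 to 7109 after PB; 2 fell in CD-1 mice (2981 to 5711, and 1501 to 3637) and 1 rose in hCAR/hPXR mice (3714 to 4800, and 3620 to 5393). Leukocyte genes summed to 5.97 to 8.38 in hCAR/hPXR controls and 4.14 to 5.29 after PB, and to 5.59 to 6.67 and 3.95 to 5.16 in C3H mice. Most tested genes did not follow these lower sums, which weigh bright probes most. In hCAR/hPXR mice 4 of 5 were above 0, with 2 called higher and 1 lower. In C3H mice 2 of 3 were above 0 and none passed. The B-cell gene Ms4a1 was well above background on no C3H array. Erythroid precursor genes, whose cells also divide, summed to 300.7 to 421.1 and 189 to 383 in hCAR/hPXR mice and to 578 to 605 and 261 to 635 in C3H mice, with 1 of 5 tested lower in hCAR/hPXR and none passing in C3H mice. The sums of the bile duct list were higher after PB in every strain, without overlap: 1.87 to 4.74 in hCAR/hPXR controls against 20.6 to 53.5, 2.54 to 3.73 in C3H controls against 13.02 to 25.5, and 1.61 to 4.03 in CD-1 controls against 4.95 to 7.6. Of its tested genes 3 of 4 rose in hCAR/hPXR mice, 2 of 4 rose and 1 (Sox9) fell in C3H mice, and 1 of 5 rose in CD-1 mice. In C3H mice the list was divided, with differences from -2.80 to 4.61. The PB animals lay wholly above the controls for 2 of the 4 (17.3% of all genes) and wholly below for 2 (24.3%). Prom1 rose by 6.68 ± 0.26 (5.79 ± 0.45 with the slide) in hCAR/hPXR and 4.61 ± 0.35 in C3H mice. No CD-1 control of Prom1 was well above background, so that it entered the test there only through the PB group. With those controls raised to the lowest signal marked above background, it was 16.4-fold higher after PB. Epcam was not tested in hCAR/hPXR and C3H mice.

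In C3H mice 3 more lists had sums that did not overlap. Those of exocrine pancreas genes were 3.85 to 4.16 in controls and 5.76 to 15.6 after PB, with Cela1 higher and Ctrb1 lower (4.31 ± 0.53 and -0.77 ± 0.12) of 2 tested. Endothelial genes summed to 133 to 147 and 80.6 to 115 (Lyve1 higher, 1.34 ± 0.31, and Kdr lower, -0.65 ± 0.15, of 6), and macrophage genes to 50.6 to 65.1 and 41.6 to 49.7 (none of 5 passed). These sums overlapped in hCAR/hPXR mice, at 1.75 to 3.04 and 1.46 to 2.1, at 97.5 to 124 and 83.2 to 115, and at 65.8 to 85.4 and 69 to 144. The CD-1 sums of the same lists overlapped as well. Neutrophil and stellate sums overlapped in all 3 strains.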

How the data were processed

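Liver RNA of 28 mice in 6 groups was measured on 1-colour arrays, 1 per animal, and samples were grouped by GEO's labels. Per the file headers, Agilent Feature Extraction 10.7.3.1 made the deposited intensity values, whose processed signal is background-subtracted and detrended within an array. The value table that the authors deposited holds log2 values: every column equals the log2 processed signal minus a constant within -0.0233 to 0.0102 of the percentile used here, so its scale and direction are settled.

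From the scanner files, control spots and the spots marked as outliers (109 to 430 on an array) were dropped, none was saturated, and the 75th percentile of each array was subtracted from the log2 processed signal. Probes were named by RefSeq accession (26582 of 55681, 20145 symbols; 29099 without a symbol), and the probe with the highest mean stood for its gene. Within a strain, PB and control were set against each other with limma's lmFit and eBayes (limma 3.58.1, R 4.3.3; two-sided, with 6 residual degrees of freedom for CD-1, 12 for hCAR/hPXR and 4 for C3H), and PB effects were compared between strains in 1 fit of all arrays (22 degrees of freedom), with Benjamini-Hochberg adjustment over all genes tested and a threshold of 0.05. "At least" folds set the dim group at the lowest signal marked well above background. The number of arrays limits the precision. The steps were tested on simulated data.

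Values of each animal are given for the 2 members of each role with the highest mean (1 in chromatin assembly), the member of each role with the largest hCAR/hPXR difference, members called in CD-1 or C3H mice, and, chosen after their values were seen, Cdc45 and Rfc3; other genes are named among the called ones of their list with the smallest adjusted p, up to 4 a list, with Dnmt1, Umps and Atic, Rbl1 and E2f7 among them, and Mki67 and the cell markers as references, single markers chosen after their values were seen; 1 marker is not reported here. The members and lists were chosen with earlier results of these data known. Alternatives were quantile normalization, normexp (offset 50, on the median signal, since the mean signal was not used here), another percentile, other filters, other probes, 1 fit for all arrays, a variance trend, the deposited table, the replicate block, the slide and leaving out each animal.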

Additional observations from a re-analysis of the deposited data

Results flagged for a closer look

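In groups of 4 to 10 animals, 14 of 116 sets of member values held an animal whose gap to the nearest other exceeded Dixon's limit; chance flags about 1 in 20. In CD-1 mice these were Mcm10 in PB animal 1 at -0.50 (nearest 1.36), Gins1 in PB animal 3 at -0.85 (nearest -1.76), and control 1 for Prim2 at -3.82 (nearest -1.39) and for Pole at -2.07 (nearest -0.67). In hCAR/hPXR mice control 4 was low for Mcm4 at 1.06, Mcm7 at 1.83 and Gins1 at 0.17. Control 6 was low for Mcm5 at -5.08 and Pole2 at -5.36, and control 1 for Mcm10 at 2.58 and Rfc5 at 1.87. Control 7 was low for Chaf1a at -2.76, control 2 was high for Rpa2 at -0.14, and PB animal 5 was low for Prim1 at -2.22 (nearest 1.40).

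For differences of the PB effect between strains, 28.6% of all genes passed the interaction test in hCAR/hPXR minus CD-1 mice. The shares were 15.1% in C3H minus CD-1 and 9.55% in hCAR/hPXR minus C3H mice. The members that passed are listed here. In hCAR/hPXR minus CD-1 mice they were Orc6 at 0.83, Mcm4 at 1.42, Mcm6 at 1.30, Mcm7 at 1.12, Gins1 at 0.87, Pold1 at 1.35, Rfc5 at 0.61 and Gins3 at -1.22. In C3H minus CD-1 mice they were Mcm4 at 1.51, Mcm6 at 1.95, Gins2 at 2.72, Pold1 at 1.58, Lig1 at 1.34, Chaf1a at 1.69, Chaf1b at 0.90 and Rrm2 at 2.38. In hCAR/hPXR minus C3H mice Gins2 stood at -1.73. Both comparisons with CD-1 mice share the CD-1 animals. Orc6, Mcm4, Pold1 and Rrm2 were near background in CD-1 mice, and Gins2 and Chaf1a in C3H controls, so that their fitted sizes are not measured ones.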

How the results depend on the processing

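In CD-1 mice, members called higher numbered 3 under quantile normalization, 3 with normexp, 2 with the percentile over detected probes, 3 in 1 fit of all arrays, 1 with the stricter filter, 1 with the mean of probes, 1 with the second probe, and 0 to 1 on leaving out an animal, against 0; members lower numbered 0 under quantile normalization, 0 with no filter and 0 to 1 on leaving out an animal, against 1. In hCAR/hPXR mice the slide as a block and the first slide alone each left 1 higher and 0 lower (26 and 3 otherwise), and normexp gave a median of 0.34. Centred on the median of all genes, an alternative chosen after seeing the data, 22 were higher and 3 lower. In C3H mice members higher numbered 3 with no filter, which tests 37208 genes, and 3 to 25 on leaving out an animal, against 14; members lower numbered 1 in 1 fit of all arrays and 0 to 1 on leaving out an animal. Of these counts and medians, recomputed under each alternative, 200 values moved by less than 1.5 times or the spread and 37 by more.

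With the replicate block, 8 members were higher in C3H mice (1543 genes called in place of 2682), 26 higher and 3 lower in hCAR/hPXR and 0 and 1 in CD-1 mice. Whether the numbers pair the animals is not settled. Deviations of same-numbered animals correlated at -0.45 to 0.06 in CD-1, -0.13 to 0.27 in hCAR/hPXR and 0.04 to 0.19 in C3H mice. Between different numbers the correlations were -0.44 to 0.52, -0.28 to 0.38 and -0.18 to 0.08. Animals 1 and 2 of the C3H mice and animal 7 of the hCAR/hPXR mice matched their own number best, and no CD-1 animal did. With 3 C3H animals per group a pairing can be neither shown nor excluded.

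Members differing between hCAR/hPXR and CD-1 mice were 2 higher under quantile normalization, 13 higher and 3 lower with normexp and 4 higher with no filter (7 and 1 otherwise). Between C3H and CD-1 mice they were 2 higher and 1 lower, 2 lower with normexp, and 5 higher with no filter (8 and 0 otherwise). Between hCAR/hPXR and C3H mice 0 were lower under quantile normalization and 2 with normexp (1 otherwise).

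Directions that turned were, in CD-1 mice, with normexp Cdc45 (0.051), Fen1 (-0.25) and Pole (-0.31), and with the percentile over detected probes Cdc45 (0.086), Gins1 (0.026), Prim1 (0.13) and Rpa2 (0.21). On leaving out an animal there, Pole ran from -0.081 to 0.45, Pcna from -0.14 to 0.31, Rpa2 from -0.24 to 0.17, Rfc4 from -0.021 to 0.60, Prim1 from -0.31 to 0.13 and Rrm1 from -0.034 to 0.21. In hCAR/hPXR mice Gins3 (0.18) and Lig1 (-0.058) turned with the slide as a block and on the first slide alone. In C3H mice, on leaving out an animal, Tyms ran from -0.22 to 0.43, Pole2 from -0.51 to 1.69 and Rfc5 from -0.17 to 0.027. Chaf1b in C3H minus CD-1 mice turned under quantile normalization (-0.35) and normexp (-0.57). The cause was not tested.

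The percentile over detected probes moved the median of all genes from -0.04 to 0.22 in CD-1 and from 0.13 to -0.05 in hCAR/hPXR mice. Of all calls in hCAR/hPXR mice 60.2% were higher, against 37.2% with that percentile and 43% when centred. Of all calls in CD-1 mice 23.2% were higher, against 33.8% under quantile normalization and 40.1% with normexp. For a member with no array of a group well above background, at most a fold against the lowest marked signal is given, as for Rrm2 in CD-1 mice. The fitted differences of Gins2 and Chaf1a in C3H mice rest on controls of which 1 of 3 was well above background.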
